A study of Mus musculus with 15 samples.

Results

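miR-203-3p and miR-205-5p are microRNAs (miRNAs) best known from epithelia, and their levels and read forms are described here across 15 mouse small RNA libraries. They are 2 of the 780 miRNA arms with reads. Each was counted from inserts of 18 to 26 bases whose first 18 bases matched a stretch of the mature arm exactly. miR-203-3p had 1078 reads and miR-205-5p had 233 reads in all libraries together.

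The libraries fall into 5 groups of 3. TUBO is a mouse breast cancer line that came from primary tumours of Balb-NeuT animals, which carry a Neu transgene, Neu being the rat form of the receptor Her2. It was sampled as exosomes from its culture supernatant, as the supernatant left over once exosomes had been isolated, and as cells. MM3MG, a BALB/c line, represents normal mammary epithelium. MM3MG-Her2 is that line after transduction with pLSXN-Neu retroviral particles. Cells were grown in DMEM with 10% FCS, a bovine serum, per the labels' protocols. The study's question was which miRNAs, in Her2-expressing lines and in the particles such lines release, act on the progesterone receptor. TUBO and MM3MG are 1 line each, so a difference between them is one between lines. The labels do not say whether replicates are separate cultures. The p-values therefore reflect only how far these samples spread, and that spread may be technical.

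A miRNA is cut from a hairpin transcript, and its bases 2 to 8, the seed, pair with target mRNAs and so set which genes it represses. In mouse skin miR-203 marks keratinocytes that leave the basal layer, where it represses the basal transcription factor Trp63. miR-205 is abundant in stratified and glandular epithelia, mammary progenitor cells included, and together with the miR-200 family it represses Zeb1 and Zeb2, transcription factors that switch off E-cadherin.

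The sequences below show what was counted, since a read's first base decides its seed. They are RefSeq entries of the GRCm38.p6 build, written 5′ to 3′, with the seed in capitals for the mature forms and the mature arm in capitals for the hairpins. The second form of miR-203-3p, which starts 1 base later, is given because it made up a large share of the reads.
miR-203-3p: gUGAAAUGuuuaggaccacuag
miR-203-3p, second start: uGAAAUGUuuaggaccacuag
miR-205-5p: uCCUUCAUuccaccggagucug
Mir203 hairpin: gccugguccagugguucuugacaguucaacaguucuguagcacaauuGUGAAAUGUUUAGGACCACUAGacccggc
Mir205 hairpin: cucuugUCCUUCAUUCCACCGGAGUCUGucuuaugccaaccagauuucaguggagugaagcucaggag
The arms miR-203-3p and miR-205-5p have 22 bases each and the second start has 21. The 3 seeds differ, and 0 other mature arms of the RefSeq table carried any of them. 0 other hairpins held any 18-base stretch of either arm, so reads could not be split with a near-identical copy.

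Mir203 lies at chr12:112130880-112130955 on the plus strand, and miR-203-3p occupies chr12:112130927-112130948. The hairpin is between protein-coding genes, 3321 bases beyond Aspg and 15253 bases before Kif26a. Mir205 lies at chr1:193507463-193507530 on the minus strand, with miR-205-5p at chr1:193507503-193507524. It is inside an exon of the lincRNA 4631405K08Rik, which is transcribed from the same strand, and the nearest protein-coding gene, Camk1g, is 137165 bases away.

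Libraries held 196152 to 710902 reads, of which 58250 to 534589 were miRNA reads. miRNA reads made up 57.0% to 60.2% of the exosome libraries, 27.9% to 32.9% of the supernatant libraries, 75.2% to 76.2% of the TUBO cell libraries, 48.9% to 53.6% of the MM3MG-Her2 libraries and 70.6% to 76.7% of the MM3MG libraries. Levels are given in CPM, a library's read count scaled to its total of miRNA reads. The supernatant was the shallowest group, and 1 library of it had as few as 12 reads of miR-203-3p and 14 of miR-205-5p. In bulk RNA, fewer cells with a miRNA and less of it per cell cannot be told apart.

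Both miRNAs were present in all 9 libraries from TUBO cultures and were at or near 0 in both MM3MG lines. In TUBO cells miR-203-3p had 192, 154 and 217 reads in replicates 1 to 3, or 385, 387 and 406 CPM. In MM3MG-Her2 it had 0 reads in each of the 3 libraries, where 3 reads over the group would be 4.59 CPM. In MM3MG it had 4, 6 and 7 reads, or 13.6, 12.3 and 20.1 CPM. The TUBO cell values lay within a narrow band far above all 6 MM3MG and MM3MG-Her2 libraries, and every MM3MG library was above every MM3MG-Her2 library.

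miR-205-5p was the scarcer of the pair in TUBO cells, with 31, 36 and 40 reads, or 62.2, 90.4 and 74.8 CPM. It had 0 reads in each MM3MG-Her2 library. In MM3MG it had 1, 1 and 0 reads, or 3.39, 2.05 and 0 CPM. TUBO cell libraries did not overlap with those of either MM3MG line, while MM3MG-Her2 and MM3MG overlapped at 0. The share of all arms whose levels separate in this way is not given here. Separation of levels, in these groups or those below, is therefore not read as particular to either miRNA. Intervals and floors here cover counting error only, because amplified reads that carry no molecular identifier need not be separate molecules.

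**Figure D1:**
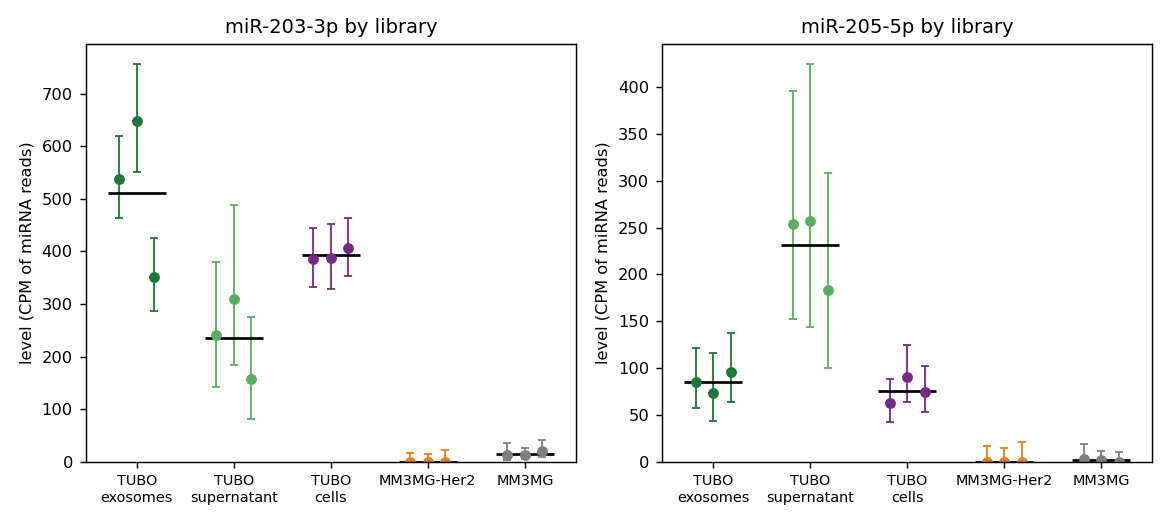
Levels of miR-203-3p (left) and miR-205-5p (right) in CPM of miRNA reads, by group; points are libraries with exact Poisson 95% intervals, and black lines are the means of 3 libraries. Both miRNAs are at 0 in MM3MG-Her2; miR-203-3p averages 512, 236 and 393 CPM in exosomes, supernatant and TUBO cells, and miR-205-5p is highest in supernatant at 232 CPM.

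The log2 level of miR-203-3p was 4.41 ± 0.27 higher in TUBO cells than in MM3MG (± is the SE, 3 libraries a group; adjusted p = 1.9e-17, edgeR's quasi-likelihood test with Benjamini-Hochberg adjustment). The pooled CPM ratio was 26.2, from 563 reads in TUBO cells and 17 reads in MM3MG. Of the 260 arms tested, 80.8% passed the threshold of 0.05 in this comparison, 33.5% as higher and 47.3% as lower, so passing it was common. Set against the median of all arms, which was -0.38, the log2 difference of miR-203-3p was 4.79.

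Against MM3MG-Her2, TUBO cells had at least 85.7-fold higher miR-203-3p, with 563 reads against 0 reads (adjusted p = 1.5e-17, edgeR). In this comparison 79.2% of arms passed, 28.5% as higher and 50.8% as lower. TUBO cells likewise had at least 16.3-fold higher miR-205-5p than MM3MG-Her2, with 107 reads against 0 reads (adjusted p = 1.5e-08, edgeR). Both bounds use a floor of 3 reads over the 3 MM3MG-Her2 libraries and leave out counting error in the TUBO cell reads.

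miR-205-5p was higher in TUBO cells than in MM3MG as well, by 4.91 ± 0.585 on the log2 scale (SE, adjusted p = 1.3e-09, edgeR). It had 107 reads in TUBO cells and 2 reads in MM3MG, a pooled CPM ratio of 42.3, for which counting error alone allows 11.4 to 354. Its interval is wide because so few reads stand behind the MM3MG value. Both miRNAs passed the filter on low counts in the cell libraries through TUBO cells alone, so their passing the test there is no separate evidence.

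Between the MM3MG lines, miR-203-3p fell in MM3MG-Her2, with 0 reads against 17 reads in MM3MG, at least 3.27-fold lower at a floor of 3 reads (adjusted p = 0.00024, edgeR). That bound leaves out counting error in the 17 reads. Pooled counting 95% intervals were 8.75 to 24.1 CPM in MM3MG and 0 to 5.65 CPM in MM3MG-Her2. In that comparison 60.8% of arms passed, 32.3% as lower. The call rests on few reads, and with reads that start at the annotated first base only, the adjusted p was 0.052 in edgeR. For miR-205-5p, 0 reads in MM3MG-Her2 and 2 reads in MM3MG are both at or under the floor of 3 reads, so no fold is given (adjusted p = 0.25, edgeR).

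The arms opposite to the counted ones, miR-203-5p and miR-205-3p, had 0 reads in all 15 libraries, which over 4314765 miRNA reads allows up to 0.695 CPM. All reads of both hairpins that met the rule came from the arm named as the guide. By level, miR-203-3p ranked 89 to 91 among 379 to 407 arms with reads in TUBO cells and 236 to 262 among 428 to 499 arms in MM3MG. miR-205-5p ranked 144 to 159 in TUBO cells and 350 to 388 in the MM3MG libraries that had a read of it.

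Other miRNAs known from epithelia gave the setting for these levels. Of 9 listed, miR-375-3p had no entry among the RefSeq arms and was not counted. The 8 measured were the miR-200 family (miR-200a-3p, miR-200b-3p, miR-200c-3p, miR-141-3p and miR-429-3p), which represses Zeb1 and Zeb2, and the miR-183, miR-96 and miR-182 cluster, which is also abundant in sensory organs. In TUBO cells against MM3MG, 7 of 8 rose and 0 fell, where 33.5% of all 260 arms rose and 47.3% fell. The median log2 difference was 9.69, against -0.38 over all arms. In TUBO cells against MM3MG-Her2, 8 of 8 rose, where 28.5% of all arms rose, with a median of 8.84 against -0.49 over all arms. The miR-200 members passed the filter on low counts in the cell libraries through TUBO cells alone, so their passing is no separate evidence. miR-96-5p, at 0.21 on the log2 scale against MM3MG (adjusted p = 0.48, edgeR), was the member that did not pass.

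Of the miR-183 cluster, miR-182-5p and miR-183-5p were plentiful in all 3 lines, while miR-96-5p was scarce, at 86.4 CPM in TUBO cells, 22.0 CPM in MM3MG-Her2 and 62.0 CPM in MM3MG. miR-182-5p averaged 58151 CPM in TUBO cells, 11528 CPM in MM3MG-Her2 and 31129 CPM in MM3MG. miR-200a-3p averaged 10605 CPM in TUBO cells, 2.78 CPM in MM3MG-Her2 and 11.4 CPM in MM3MG. Over their 3 libraries, the 5 miR-200 members had 1 to 6 reads each in MM3MG-Her2 and 1 to 12 reads each in MM3MG, so that family, which defines epithelial cells among miRNAs, was near its floor in lines labelled as mammary epithelium. miR-203-3p and miR-205-5p were near 0 in the same libraries.

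In MM3MG-Her2 against MM3MG, 3 of the 8 fell, namely miR-183-5p by 1.49, miR-96-5p by 1.46 and miR-182-5p by 1.47 on the log2 scale, and miR-200c-3p passed as higher on only 6 reads in MM3MG-Her2 and 2 reads in MM3MG (adjusted p = 0.049, edgeR). The list's median was -0.65, against 0.00 over all 260 arms, of which 32.3% fell and 28.5% rose, so 3 of 8 is near the share over all arms.

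Markers of stromal cells moved the other way. Of 5 listed (miR-199a-5p, miR-199a-3p, miR-214-3p, miR-143-3p and miR-145a-5p), 0 rose and 5 fell in TUBO cells against MM3MG, and likewise against MM3MG-Her2, and 3 of 5 fell in MM3MG-Her2 against MM3MG. Over all arms 47.3%, 50.8% and 32.3% fell in these comparisons. The list's median log2 differences were -9.76, -8.76 and -0.97, against -0.38, -0.49 and 0.00 over all 260 arms. With miR-214-3p, which had 0 reads in TUBO cells, set to its bound of 3 reads, the first 2 medians were -9.42 and -8.52. miR-199a-5p and miR-214-3p passed the filter on low counts through the MM3MG lines alone, so their passing is no separate evidence. The markers' summed level was 48112 to 48152 CPM in TUBO cells, 97330 to 100959 CPM in MM3MG-Her2 and 168505 to 181707 CPM in MM3MG. Nearly all of the TUBO sum was miR-143-3p, at 47866 CPM, a miRNA of smooth muscle and fibroblasts. The skeletal muscle pair miR-1a-3p and miR-206-3p summed to 0 to 2.01 CPM in TUBO cells, 232 to 309 CPM in MM3MG-Her2 and 94.8 to 200.1 CPM in MM3MG. In the MM3MG lines this was nearly all miR-206-3p, at a mean of 259 CPM in MM3MG-Her2 and 137 CPM in MM3MG. miR-1a-3p averaged 4.88 CPM and 0 CPM there. The part of these markers in the results for miR-203-3p and miR-205-5p was not tested.

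Within the TUBO cultures the 2 miRNAs were distributed differently. miR-203-3p was at 538, 648 and 351 CPM in exosomes, 240.3, 309 and 157 CPM in supernatant, and 385, 387 and 406 CPM in cells. It averaged 512 ± 150.1 CPM in exosomes, 236 ± 76.0 CPM in supernatant and 393 ± 11.5 CPM in cells (SD, n = 3 each). Every supernatant library was below every exosome and cell library, whereas exosomes and cells overlapped, because exosome replicate 3 was lower than all 3 cell libraries.

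miR-203-3p was higher in exosomes than in supernatant by 1.15 ± 0.32 on the log2 scale (SE, 95% interval 0.50 to 1.81, adjusted p = 0.0025, edgeR). Of the 221 arms tested in this comparison, 67% passed, 39.4% as higher and 27.6% as lower. The adjusted p became 0.061 where the whole insert had to be an exact stretch of the hairpin, at 0.78 on the log2 scale. The difference was larger, at 2.09 with all reads as the library size and 2.06 with the annotated start only, and passed in both. Exosomes against cells gave 0.62 ± 0.26 (95% interval 0.08 to 1.15), which did not pass after adjustment (adjusted p = 0.063, edgeR, where 35.3% of arms passed, 19.9% as higher). Without exosome replicate 3 this difference was 0.80 and passed (adjusted p = 0.0095, edgeR). With all reads as the library size it was 0.01 (adjusted p = 0.98, edgeR).

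Supernatant against cells gave -0.53 ± 0.32 for miR-203-3p (SE, 95% interval -1.19 to 0.12, adjusted p = 0.13, edgeR, where 73.3% of arms passed, 39.8% as lower). This result varied with the scaling. It was -0.16 with upper-quartile scaling (adjusted p = 0.66, edgeR) and -2.08 with all reads as the library size (adjusted p = 2e-05, edgeR). With whole inserts that match the hairpin exactly it was -0.27 (adjusted p = 0.49, edgeR). Scaling to all reads moved the median of all arms to -1.82, against -0.31 in the TMM scaling. Relative to the median, miR-203-3p was at -0.27 with all reads and at -0.23 with TMM.

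miR-205-5p had its highest level in the supernatant. It had 30, 18 and 28 reads in exosomes, or 85.4, 73.8 and 95.4 CPM. In supernatant it had 19, 15 and 14 reads, or 254, 258 and 184 CPM, against 62.2, 90.4 and 74.8 CPM in cells. Every supernatant library was above all exosome and cell libraries, and exosomes and cells overlapped. The means were 84.8 ± 10.8 CPM in exosomes, 232 ± 41.65 CPM in supernatant and 75.8 ± 14.1 CPM in cells (SD, n = 3 each).

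In supernatant against cells, miR-205-5p rose by 1.84 ± 0.35 on the log2 scale, or 3.57-fold (SE, 95% interval 1.11 to 2.56, adjusted p = 6.2e-05, edgeR), a comparison in which 33.5% of arms passed as higher. In exosomes against supernatant it fell by 1.43 ± 0.36 (SE, adjusted p = 0.001, edgeR). Exosomes against cells gave 0.40 ± 0.32 (95% interval -0.26 to 1.06, adjusted p = 0.32, edgeR). These 3 comparisons share libraries and are not independent of each other.

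Both calls in supernatant were lost with all reads as the library size, at 0.28 for supernatant against cells (adjusted p = 0.45, edgeR) and -0.47 for exosomes against supernatant (adjusted p = 0.22, edgeR). miRNAs are a smaller part of the supernatant libraries, so these values are levels among all small RNA rather than among miRNAs. Relative to the median of all arms, miR-205-5p was at 2.10 in supernatant against cells with all reads and at 2.14 with TMM.

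**Figure D2:**
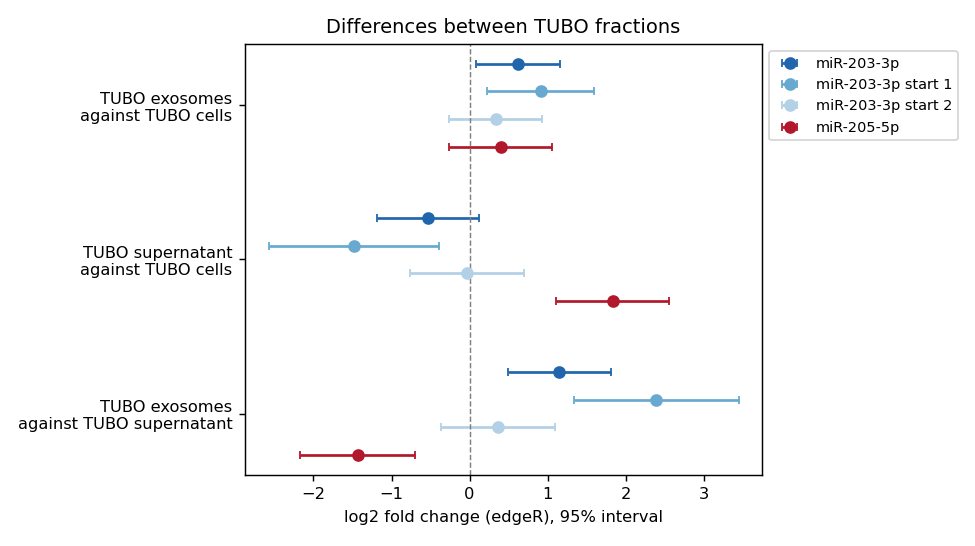
Log2 fold changes (x axis) with 95% intervals from edgeR for miR-203-3p, its first and second starts, and miR-205-5p, in the 3 comparisons among TUBO exosomes, supernatant and cells. In supernatant against cells miR-205-5p lies at 1.84 and the first start of miR-203-3p at -1.48, on either side of 0, while the second start lies at -0.03.

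By group mean, miR-203-3p ran from exosomes through TUBO cells, supernatant and MM3MG down to MM3MG-Her2, and exosomes and cells, and supernatant and cells, did not differ past the threshold. miR-205-5p ran from supernatant through exosomes, TUBO cells and MM3MG down to MM3MG-Her2, and neither exosomes and cells nor MM3MG-Her2 and MM3MG differed past it. Supernatant against either MM3MG line was not tested.

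The ratio of the 2 miRNAs within a library needs no scaling between libraries. There were 0.159, 0.114 and 0.272 miR-205-5p reads per miR-203-3p read in exosomes, 1.06, 0.833 and 1.17 in supernatant, and 0.161, 0.234 and 0.184 in cells. The 2 were at about equal reads in the supernatant and miR-203-3p was ahead in every exosome and cell library. On the log2 scale the ratio averaged -2.53 ± 0.63 in exosomes, 0.01 ± 0.24 in supernatant and -2.37 ± 0.27 in cells (SD, n = 3 each).

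Supernatant minus cells was 2.38 on the log2 scale and exosomes minus supernatant was -2.54, and in both comparisons the groups did not overlap (two-sided exact permutation p = 0.1 each). With 3 libraries against 3, 0.1 is the smallest p that test can give. It comes to 0.169 when adjusted over the 22 such tests run on the pair's ratio and read forms. The share of other pairs of arms whose ratios separate in this way is not given here. Separation of the ratio is therefore not read as particular to this pair. Exosomes minus cells was -0.16 with overlapping libraries (exact permutation p = 0.8). Since ligation and PCR can favour one sequence, the ratio is read between groups and not as a ratio of molecules.

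**Figure D3:**
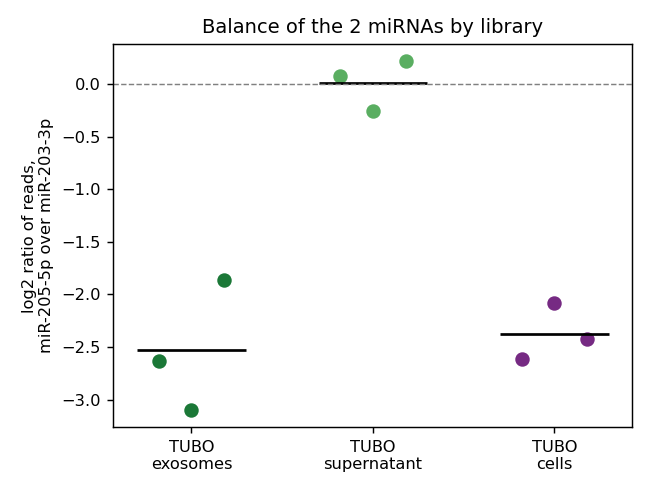
Log2 ratio of miR-205-5p to miR-203-3p reads in each library (points) of TUBO exosomes, supernatant and cells, with the group mean (line); the dashed line at 0 marks equal reads. Supernatant libraries lie around 0, between -0.26 and 0.21, and all exosome and cell libraries lie at or below -1.86.

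miR-203-3p was read mainly from 2 first bases, and miR-205-5p from 1. The 2 starts were near equal in exosomes and TUBO cells but had 11 and 37 reads in supernatant. In TUBO cells replicate 1, 2 reads of miR-203-3p began at base 3. All 233 reads of miR-205-5p began at the annotated first base. For miR-203-3p the most frequent insert in all libraries was tGAAATGTttaggaccactag, the second start, with 408 reads (150 in exosomes, 24 in supernatant, 222 in TUBO cells and 12 in MM3MG). The annotated form, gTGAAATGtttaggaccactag, had 360 reads (170 in exosomes, 7 in supernatant, 179 in TUBO cells and 4 in MM3MG). Capitals mark bases 2 to 8 of each read, which are TGAAATG for the annotated start and GAAATGT for the second.

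Such a split was rare among miRNAs. In TUBO cells 45.1% of miR-203-3p reads lay off its main start, against a median of 1.65% over 142 arms with at least 100 reads, and 2 arms, miR-135b-3p at 47.6% and miR-203-3p itself, were split that far. In exosomes 45.6% lay off the main start, against a median of 1.67% over 113 arms, and miR-203-3p was the most split of them. These arms were picked out after their values were seen.

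The annotated start held a different share of miR-203-3p in each TUBO fraction. In exosomes it had 99 of 189, 94 of 158 and 52 of 103 reads, or 52.4%, 59.5% and 50.5%. In supernatant it had 6 of 18, 4 of 18 and 1 of 12 reads, a pooled 22.9% with a Wilson 95% interval of 13.3% to 36.5%. In cells it had 78 of 192, 70 of 154 and 104 of 217 reads, or 40.6%, 45.5% and 47.9%. All exosome libraries were above all cell libraries, and all supernatant libraries were below them. In MM3MG it had 5 of 17 reads.

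The share was 54.1% ± 4.75 in exosomes, 21.3% ± 12.5 in supernatant and 44.7% ± 3.71 in cells (SD, n = 3 each). Exosomes minus cells was 9.45 percentage points and supernatant minus cells was -23.4 points (exact permutation p = 0.1 for each, the smallest possible). Groups that did not overlap in this share were common, at 22.6% of 106 arms for exosomes against cells and 21.9% of 96 arms for supernatant against cells. Fewer arms changed as far in points. Arms read almost wholly from 1 start have few reads to shift, and in TUBO cells the median arm had 1.65% off its main start. The ranks that follow are therefore not read as an unusual shift of miR-203-3p. For exosomes against cells the median change over arms was 0.05 points, and 4 of the 106 arms, miR-203-3p included, changed at least as far upward. For supernatant against cells the median was 0.20 points and 1 of the 96 arms, miR-203-3p itself, fell at least as far. That rank rests on 48 miR-203-3p reads in supernatant, near the 40 required of an arm in each group there.

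**Figure D4:**
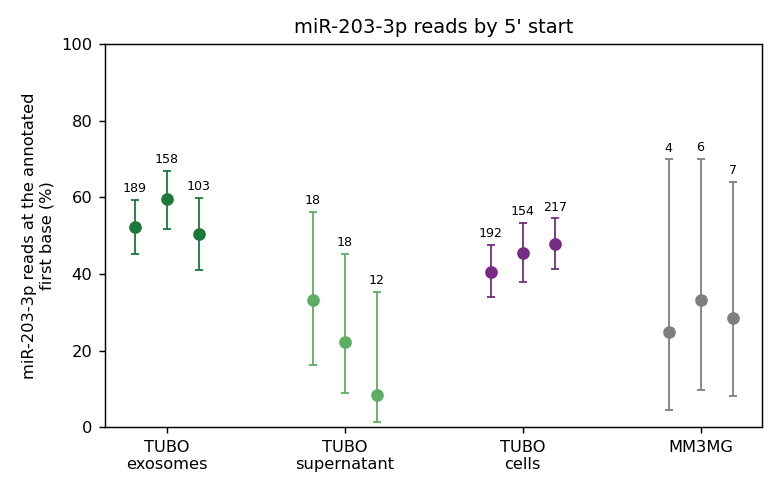
Share of miR-203-3p reads that begin at the annotated first base, in percent, for each library of TUBO exosomes, supernatant, TUBO cells and MM3MG; bars are Wilson 95% intervals and the numbers above them are the reads behind each point. Exosome libraries lie at 50.5% to 59.5% and cell libraries at 40.6% to 47.9%, and the supernatant points rest on 12 to 18 reads each.

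Fitted as separate features, the 2 starts gave different calls. The annotated start was higher in exosomes than in cells by 0.91 ± 0.33 (SE, log2, adjusted p = 0.033, edgeR) and fell by 1.48 ± 0.53 in supernatant against cells (adjusted p = 0.015, edgeR). For the second start the same comparisons gave 0.33 ± 0.29 (adjusted p = 0.37, edgeR) and -0.03 ± 0.35 (adjusted p = 0.95, edgeR). In exosomes against supernatant the annotated start was higher by 2.39 ± 0.51 (adjusted p = 0.00026, edgeR), and the second start gave 0.37 ± 0.36 (adjusted p = 0.38, edgeR). In TUBO cells against MM3MG both starts were higher, by 4.96 ± 0.40 and 4.05 ± 0.32 (adjusted p = 1.8e-12 and 1.4e-12, edgeR). A difference between the 2 starts was not itself tested. Their 95% intervals overlapped in exosomes against cells (0.23 to 1.60 and -0.26 to 0.93) and in supernatant against cells (-2.58 to -0.39 and -0.76 to 0.70). They did not overlap in exosomes against supernatant (1.34 to 3.45 and -0.37 to 1.10). The separate fit was chosen after the split had been seen.

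The share of short inserts also differed between the fractions. Inserts of 20 bases or fewer made up 14.2% to 18.3% of all reads in exosomes, 24.5% to 33.8% in supernatant and 9.82% to 10.4% in TUBO cells, so exosomes and supernatant were both above cells. With inserts of 20 to 24 bases only, the share of the annotated start differed by 8.40 points for exosomes minus cells and -20.0 points for supernatant minus cells. The supernatant value rests on fewer reads than the 18, 18 and 12 its libraries had before that cut. The part of insert length in the start shares was not tested.

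At the 3′ end, most reads of both miRNAs stopped at the annotated last base. For miR-203-3p, pooled over libraries, 71.1% of exosome reads, 64.6% of supernatant reads and 71.6% of cell reads did so. Reads that stopped short of it were 16.0% in exosomes, 35.4% in supernatant and 14.2% in cells. One short form, tGAAATGTttaggaccac, was 4 of 450 reads in exosomes, 11 of 48 in supernatant and 17 of 563 in cells.

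Reads with bases that the Mir203 hairpin does not hold were 12.0% ± 5.87 of miR-203-3p in exosomes and 11.8% ± 3.92 in cells (SD, n = 3 each, exact permutation p = 1). In supernatant they were 0 of 48 reads, which allows up to 6.25%. The most frequent addition was a single T, a uridine in RNA, on 90 of 118 such reads: 41 of 450 reads in exosomes, 0 of 48 in supernatant and 49 of 563 in cells. Its main form, tGAAATGTttaggaccactagt, is as long as the annotated miRNA but is shifted by 1 base. Full-length reads, with both annotated ends, were 37.5% ± 2.81 in exosomes and 31.8% ± 2.75 in cells (exact permutation p = 0.1). Such reads must begin at the annotated first base, so this overlaps with the start share given above. It is not a separate difference at the 3′ end, where pooled reads at the annotated last base were 71.1% in exosomes and 71.6% in cells. Mean insert length was 21.3 ± 0.138 bases in exosomes and 21.2 ± 0.056 bases in cells (exact permutation p = 0.4).

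Of the 9 libraries from TUBO cultures, 4 had under 20 reads of miR-205-5p, so its ends are given as counts, and no test is read from them. The annotated form, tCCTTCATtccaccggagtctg, was 43 of 76 reads in exosomes, 31 of 48 in supernatant and 67 of 107 in cells. A form 1 base longer, tCCTTCATtccaccggagtctgt, whose last base is the next one in the hairpin, was 28 of 76 reads in exosomes, 15 of 48 in supernatant and 18 of 107 in cells. By library, longer hairpin-matched reads numbered 10, 7 and 11 in exosomes, 7, 4 and 4 in supernatant, and 4, 6 and 8 in cells. Some reads left the hairpin sequence after base 18, by mismatched or uncalled bases as well as added ones. They numbered 0, 1 and 0 in exosomes, 1, 0 and 1 in supernatant, and 9, 5 and 3 in cells. The exosome read held a mismatch, and the read in supernatant replicate 3 ended in an uncalled base. Read numbers differ between these libraries, and at 3 of 40 reads in cell replicate 3 and 1 of 14 in supernatant replicate 3 the parts with such bases were close.

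**Figure D5:**
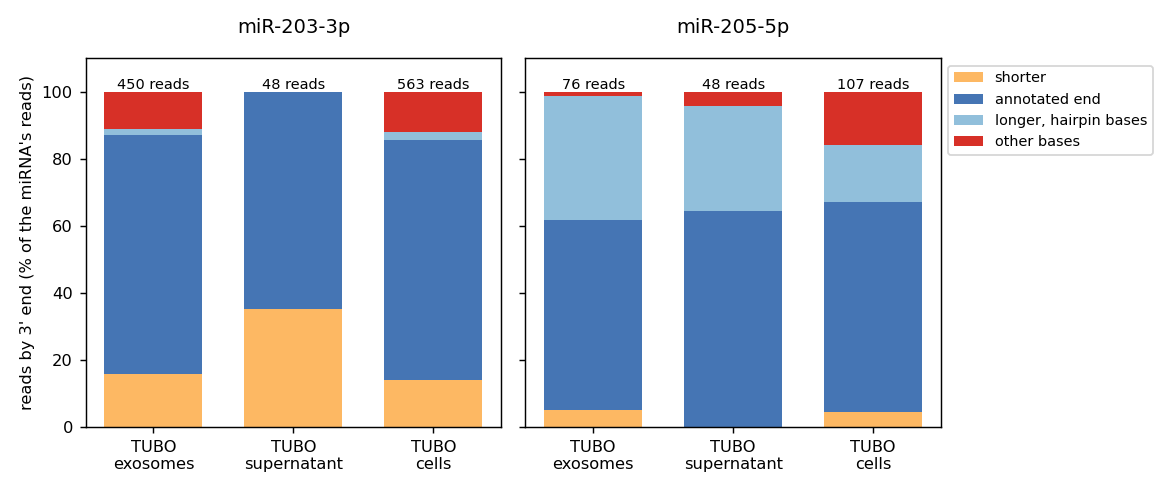
Reads of miR-203-3p (left) and miR-205-5p (right) by 3′ end, in percent of the miRNA's reads pooled over 3 libraries, for TUBO exosomes, supernatant and cells; read numbers stand above the bars. Reads of miR-203-3p that end short are 35.4% in supernatant, and reads of miR-205-5p with longer hairpin-matched ends are 36.8% in exosomes, 31.3% in supernatant and 16.8% in cells.

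Over the 15 libraries, the arm whose log2(CPM + 1) was most like that of miR-203-3p was miR-146b-5p (Pearson r = 0.993), followed by miR-27b-3p (0.986), miR-181c-3p (0.965), miR-200a-3p (0.960) and miR-9-3p (0.952), of 217 arms with at least 100 CPM in some group. For miR-205-5p they were miR-204-5p (0.978), miR-200b-5p (0.975), miR-181c-3p (0.972), miR-204-3p (0.951) and miR-429-3p (0.951). The 2 miRNAs stood 12th and 13th on each other's lists, at 0.915. Libraries cluster by culture, so these values describe that clustering and carry no test.

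The nearest arms show in which groups each pattern was shared. miR-146b-5p averaged 18453 CPM in exosomes, 12934 CPM in supernatant, 19740 CPM in TUBO cells, 660 CPM in MM3MG-Her2 and 3078 CPM in MM3MG, with MM3MG-Her2 lowest, as for miR-203-3p. miR-204-5p averaged 17688 CPM in exosomes, 63159 CPM in supernatant, 29921 CPM in TUBO cells, 30.8 CPM in MM3MG-Her2 and 27.6 CPM in MM3MG, with the supernatant highest, as for miR-205-5p. Of the 8 other epithelial miRNAs, 0 rose and 6 fell in supernatant against cells, with a median log2 difference of -1.10 against -0.31 over all 221 arms, of which 33.5% rose and 39.8% fell. In exosomes against cells 2 rose and 1 fell, with a median of -0.06 against 0.03, close to the 19.9% of all arms that rose and 15.4% that fell. In exosomes against supernatant 6 rose and 0 fell, with a median of 1.37 against 0.51, where 39.4% of all arms rose and 27.6% fell.

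Markers of blood cells and serum moved with the exosome libraries. Of 7 listed, miR-150-5p had no entry among the RefSeq arms and was not counted. Of the others, 6 had reads in exosomes, 2 in supernatant, 2 in TUBO cells, 1 in MM3MG-Her2 and 3 in MM3MG. Their summed level was 10438 to 25207 CPM in exosomes, 2953 to 7183 CPM in supernatant, 126 to 153 CPM in TUBO cells, 680 to 820 CPM in MM3MG-Her2 and 1064 to 1238 CPM in MM3MG. miR-451a, the defining red cell miRNA, was at 939, 1143 and 879 CPM in exosomes and had 0 reads in TUBO cells and both MM3MG lines. miR-486-5p, counted together with miR-3107-5p because they share reads, was at 9269, 10144 and 24049 CPM in exosomes, and the third of these, replicate 3, was also the exosome library with the lowest miR-203-3p and the highest miR-205-5p. The markers did not move together there. Of the exosome libraries, replicate 3 also had the highest miR-223-3p and miR-142a-5p but the lowest miR-451a, miR-144-3p and miR-142a-3p. The part of these markers in the exosome and supernatant levels of miR-203-3p and miR-205-5p was not tested.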

How the data were processed

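Per the labels' protocols, TRIzol RNA was ligated to 3′ and 5′ adapters, reverse transcribed, amplified by PCR and taken from a gel at miRNA size. The authors deposited, for each library, insert sequences with whole-number read counts, and no miRNA names. The sources used here do not give the trimming tool or genome build.

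Inserts of 18 to 26 bases were matched by their first 18 bases to 1738 RefSeq mature arms (GRCm38.p6) and 153 further GENCODE M21 hairpins on GRCm38. Arms that shared at least 50% of reads were merged. CPM is over a library's miRNA reads. Reads outside the rule, 54 of miR-203-3p and 10 of miR-205-5p with 1 difference in the first 18 bases, were left out. So were 17 reads of miR-203-3p that started 1 to 3 bases before the arm.

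Counts were compared with edgeR 4.0.16 in R 4.3.3 (TMM, filterByExpr, robust quasi-likelihood F-test, Benjamini-Hochberg adjustment over all arms, threshold 0.05), in 1 fit of the 9 cell libraries and 1 of the 9 libraries from TUBO cultures. Scripts were tested on simulated data. Shares, and log2 ratios with 0.5 reads added to both terms, were compared by two-sided exact permutation tests in scipy 1.17.1. DESeq2 1.42.0 was an alternative. Named miRNAs are the members, their opposite arms, the listed markers and the 5 arms most like each member, and any chosen later is said to be so. The members and lists were chosen with earlier results of these data known.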

Additional observations from a re-analysis of the deposited data

How the results depend on the processing

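Of 351 alternative results, 332 were placed as unchanged, 10 passed where the reported value had not, 4 no longer passed and 5 changed direction. For the edgeR and DESeq2 results, unchanged means the same direction and side of the threshold. For shares, ratios and lengths it means the same direction only, whatever the size. Counts of arms called in TUBO cells against MM3MG were also placed there, though they ran from 207 to 305 against the 210 reported. Every alternative tried left miR-203-3p and miR-205-5p past the threshold in TUBO cells against MM3MG and against MM3MG-Her2. These alternatives reuse the same reads, and both miRNAs passed the low-count filter through TUBO cells alone, so this adds no separate evidence. For miR-203-3p in supernatant against cells, the difference passed at -0.68 with RLE scaling, -0.76 with no scaling beyond miRNA reads, -2.08 with all reads as the library size, -0.83 with no filter on low counts, -0.68 in DESeq2, -1.31 with all 15 libraries in 1 fit and -1.39 with the annotated start only, but was -0.16 with upper-quartile scaling and -0.27 with exact inserts, neither past the threshold. In exosomes against cells it passed at 0.77 with upper-quartile scaling and 0.63 when starts up to 3 bases before the arm were also taken, and leaving out 1 library at a time gave 0.24 to 0.80, but with all reads as the library size it was 0.01. It no longer passed at 0.78 in exosomes against supernatant when the whole insert had to be an exact stretch of the hairpin, or at -3.89 in MM3MG-Her2 against MM3MG with the annotated start only. With all reads as the library size, miR-205-5p gave 0.28 in supernatant against cells and -0.47 in exosomes against supernatant, neither past the threshold, and turned to -0.19 in exosomes against cells. The log2 ratio of miR-205-5p to miR-203-3p in exosomes minus cells turned to 0.088 with exact inserts and ran from -0.49 to 0.13 with 1 library left out, and the share of miR-203-3p with bases outside the hairpin ran from -3.03 to 2.71 percentage points. The cause of these changes was not tested. The start-only alternatives were chosen after seeing the data.

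Replicates of the same number were not treated as paired, because the labels do not tie them together. Their correlations lay between -0.150 and 0.190, and 0 to 4 of 6 libraries correlated best with their own number. The 4 of 6 were in exosomes against supernatant, at 0.050, 0.094 and 0.190, where different numbers averaged -0.052. These values do not settle whether such libraries share a culture. With a replicate block no call of either miRNA changed, miR-203-3p giving 0.56 in exosomes against cells, -0.57 in supernatant against cells and 1.13 in exosomes against supernatant. The counts of arms called were 207, 202, 159, 84, 162 and 145 with the block and 210, 206, 158, 78, 162 and 148 without it, in the order TUBO cells against MM3MG, TUBO cells against MM3MG-Her2, MM3MG-Her2 against MM3MG, exosomes against cells, supernatant against cells, and exosomes against supernatant. Depth limits the supernatant most, where miR-203-3p had 12 to 18 reads and miR-205-5p 14 to 19 reads a library, so end and length shares there, and those of miR-205-5p, were given as counts or pooled over libraries and were not recomputed.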
